A study of Mus musculus with 3 samples.

Results

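Crypt cells with at least 2 *Lgr5* transcripts and few or no adenoma transcripts were followed through 3 single-cell RNA sequencing libraries of the mouse small intestine. *Lgr5* encodes a receptor for R-spondins that marks the crypt base columnar cells, the stem cells of the intestinal epithelium. A barcode was kept when it held at least 500 detected genes and at most 20% mitochondrial UMIs (unique molecular identifiers, which count captured RNA molecules). Of the kept barcodes, those with at least 2 *Lgr5* UMIs, at most 1 summed UMI of the adenoma genes *Sox17*, *Msx1*, *Nkd1* and *Notum*, and less than 0.12% *Wfdc18*, 2% *Tff3* and 5% *Defa24* among their UMIs were taken as *Lgr5*-positive crypt cells. They numbered 615 of 39227 kept barcodes, namely 379 of 11391 in WT, 133 of 10864 in *LApc* and 103 of 16972 in *LApcL*. *Tff3* is a goblet cell gene and *Defa24* a Paneth cell gene, so these limits left out cells of both lineages that carried *Lgr5* reads, and the *Wfdc18* limit left out cells high in that gene.

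The 3 libraries came from C57BL/6 mice, from which EpCAM-positive epithelial cells were sorted. The genotype of the WT mouse was labelled only as WT, which does not say whether it carried *Lgr5-CreERT2*. *LApc* carried *Lgr5-CreERT2* with *Apc* fl/fl, and *LApcL* had *Lef1* fl/fl in addition to both. *Apc* encodes a scaffold of the complex that degrades β-catenin, and *Lef1* encodes a transcription factor that β-catenin binds. Tamoxifen was given in 2 doses of 2 mg, and cells were collected at day 21 for WT and *LApcL* and at day 29 for *LApc*. The labels gave an age of 7 to 8 weeks for all 3 libraries, and the study's methods state that age at dosing for the Cre-carrying mice. Cre was expressed from the *Lgr5* locus, so the gene that chose the cells was itself modified in *LApc* and *LApcL*, and for WT this is not known, and recombination took place in the very lineage described here. Each genotype had 1 library here and, per the study's methods, 1 mouse in the experiment, which was done more than once. The methods do not say which of the named reagent kits each library was made with. Genotype, mouse and library cannot be told apart, nor can the day for *LApc*. There are therefore no replicates, no test was run on any value, and all intervals are exact 95% intervals that cover counting error only.

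Crypt base columnar cells sit between Paneth cells and receive Wnt and R-spondin signals, which keep β-catenin stable and bring it to Tcf and Lef factors on DNA. Their daughters divide rapidly in the transit-amplifying zone before they differentiate into absorptive or secretory cells. Loss of *Apc* in the *Lgr5*-positive cell is the classical route to an intestinal adenoma. The cells described here are those with at most 1 summed UMI of *Sox17*, *Msx1*, *Nkd1* and *Notum*, so part of them carried such a transcript.

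Depth differed between the libraries. They held 140181087 (WT), 79696291 (*LApc*) and 191509615 (*LApcL*) UMIs over all barcodes, and the *Lgr5*-positive crypt cells held 4281718, 981576 and 955524 of them, with medians of 10538, 6676 and 9193 UMIs and of 2827, 2139 and 2588 genes per cell. Levels below are CPM, UMI counts of a gene scaled to 1e6 UMIs, summed over the cells of a library, and a count of 0 allows up to 3 counts, or 0.701, 3.06 and 3.14 CPM. Mitochondrial genes took 5.63%, 5.99% and 4.97% of the UMIs, and ribosomal protein genes 33.8%, 34.7% and 37.1%. No doublet filter was applied, and Scrublet, run as an alternative, marked 22 of 379, 10 of 133 and 5 of 103 cells. Pairs of libraries shared 214 to 318 barcode sequences, but no barcode was an *Lgr5*-positive crypt cell in more than 1 library.

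The number of *Lgr5*-positive crypt cells rests on values used by the rule and is given as a description. At least 2 *Lgr5* UMIs were found in 452 kept barcodes of WT, 232 of *LApc* and 269 of *LApcL*. The adenoma limit removed 8 of these in WT, 85 in *LApc* and 161 in *LApcL*, whereas the *Defa24* limit removed 53, 5 and 3, the *Tff3* limit 12, 4 and 2, and the *Wfdc18* limit 5 in *LApc* alone. The remaining cells made up 3.33% (3.01 to 3.67) of the kept WT barcodes. The share was 1.22% (1.03 to 1.45) for *LApc* and 0.607% (0.496 to 0.736) for *LApcL*. Among kept barcodes that passed the adenoma and *Wfdc18* limits the shares were 3.34% (3.02 to 3.69), 1.42% (1.19 to 1.68) and 2.12% (1.73 to 2.56), so the order of *LApc* and *LApcL* depended on the denominator. When each cell was thinned to 3000 UMIs before the rule was applied, the shares of kept barcodes were 0.650%, 0.439% and 0.166%.

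Near the limits, the cells were separated unevenly. Exactly 2 *Lgr5* UMIs were carried by 227 of 379, 102 of 133 and 80 of 103 cells, and at least 5 by 27, 3 and 1. An adenoma UMI count of 1, the highest allowed, was present in 25 of 379 cells in WT, 11 of 133 in *LApc* and 39 of 103 in *LApcL*. The highest *Tff3* share inside was 1.94% in WT, against 2.27% for the nearest cell outside. For *Defa24* these values were 3.27% inside and 5.03% outside in WT, and 0.547% and 16.0% in *LApcL*. *Wfdc18* reached 0.103% of the UMIs inside and began at 0.242% outside in *LApc*.

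The targeted genes were read first. *Lef1* (ENSMUSG00000027985, chr3:131110471-131224356 on GRCm38) was represented by 4, 3 and 4 UMIs in the *Lgr5*-positive crypt cells of WT, *LApc* and *LApcL*, or 0.934, 3.06 and 4.19 CPM, so its level was too low to separate the libraries. *Apc* (ENSMUSG00000005871) stood at 22.2, 27.5 and 18.8 CPM from 95, 27 and 18 UMIs. Its log2 ratio was 0.31 (−0.36 to 0.94) for *LApc* over WT and −0.24 (−1.05 to 0.50) for *LApcL* over WT, and both intervals included 0. The counts come from the 3′ end of transcripts, and the sources used here do not place the deleted exons, so neither gene checks whether recombination had occurred in a given cell.

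The label of crypt cells was checked with the 4 markers that the rule did not use, and *Ascl2* of *LApcL* gave the smallest difference. On GRCm38 *Lgr5* lies at chr10:115450311-115587780, and the 4 markers at chr14:79984081-80023139 (*Olfm4*), chr6:87383256-87388935 (*Gkn3*), chr7:142966829-142969264 (*Ascl2*) and chr17:14279506-14404790 (*Smoc2*). *Olfm4*, which encodes a secreted glycoprotein of crypt base columnar cells, stood at 96.0 CPM in WT, 60.1 in *LApc* and 53.4 in *LApcL*, against 11.4, 5.89 and 3.10 in all other kept barcodes. *Gkn3*, a gastrokine gene, stood at 260, 242 and 289 CPM, against 29.7, 95.2 and 74.1. *Ascl2*, the transcription factor of the stem cell programme, stood at 131, 86.6 and 95.2 CPM, against 21.4, 21.5 and 73.4. *Smoc2*, a matricellular protein gene, stood at 166, 221 and 166 CPM, against 39.6, 49.8 and 37.0. At least 1 of the 4 was detected in 96.6%, 93.2% and 96.1% of the *Lgr5*-positive crypt cells, and at least 2 in 87.6%, 72.9% and 79.6%. At least 2 were detected in 18.3%, 12.8% and 27.7% of all other kept barcodes. In *LApcL* 4867 of 16972 kept barcodes passed the adenoma and *Wfdc18* limits, so its other barcodes lay mostly outside those limits. With cells thinned to 3000 UMIs, *Ascl2* was found in 23.3% (15.5 to 32.7) of these cells of *LApcL*. Its share was 18.1% (17.5 to 18.7) in the other barcodes of that library, so *Ascl2* set the cells apart little there.

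After every cell had been thinned to 3000 UMIs, the *Lgr5*-positive crypt cells with an *Olfm4* UMI made up 25.9% (21.5 to 30.6) in WT. In *LApc* this share was 19.8% (13.4 to 27.7), and in *LApcL* 10.7% (5.45 to 18.3). The same measure was 0.591%, 0.569% and 0.340% in enterocytes, which should lack the gene. Enterocytes were taken as the other kept barcodes with at least 2 UMIs of the brush border phosphatase gene *Alpi*. No adenoma limit was set on them, and in *LApcL* they held *Sox17* at 80.6 and *Msx1* at 89.9 CPM. The enterocytes of *LApcL*, here and below, are therefore not a set free of adenoma transcripts. Thinning left out 2 cells of *LApc* and none of the other libraries. Unthinned, *Olfm4* was detected in 58.3%, 33.1% and 29.1% of these cells (3.12%, 1.21% and 0.758% of enterocytes), whose depths are given above. Enterocytes had median depths of 10584, 6228 and 8946 UMIs. *Gkn3* was found in 43.0%, 41.2% and 51.5% of the thinned cells, and in 2.66%, 3.28% and 4.84% of enterocytes.

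**Figure D1:**
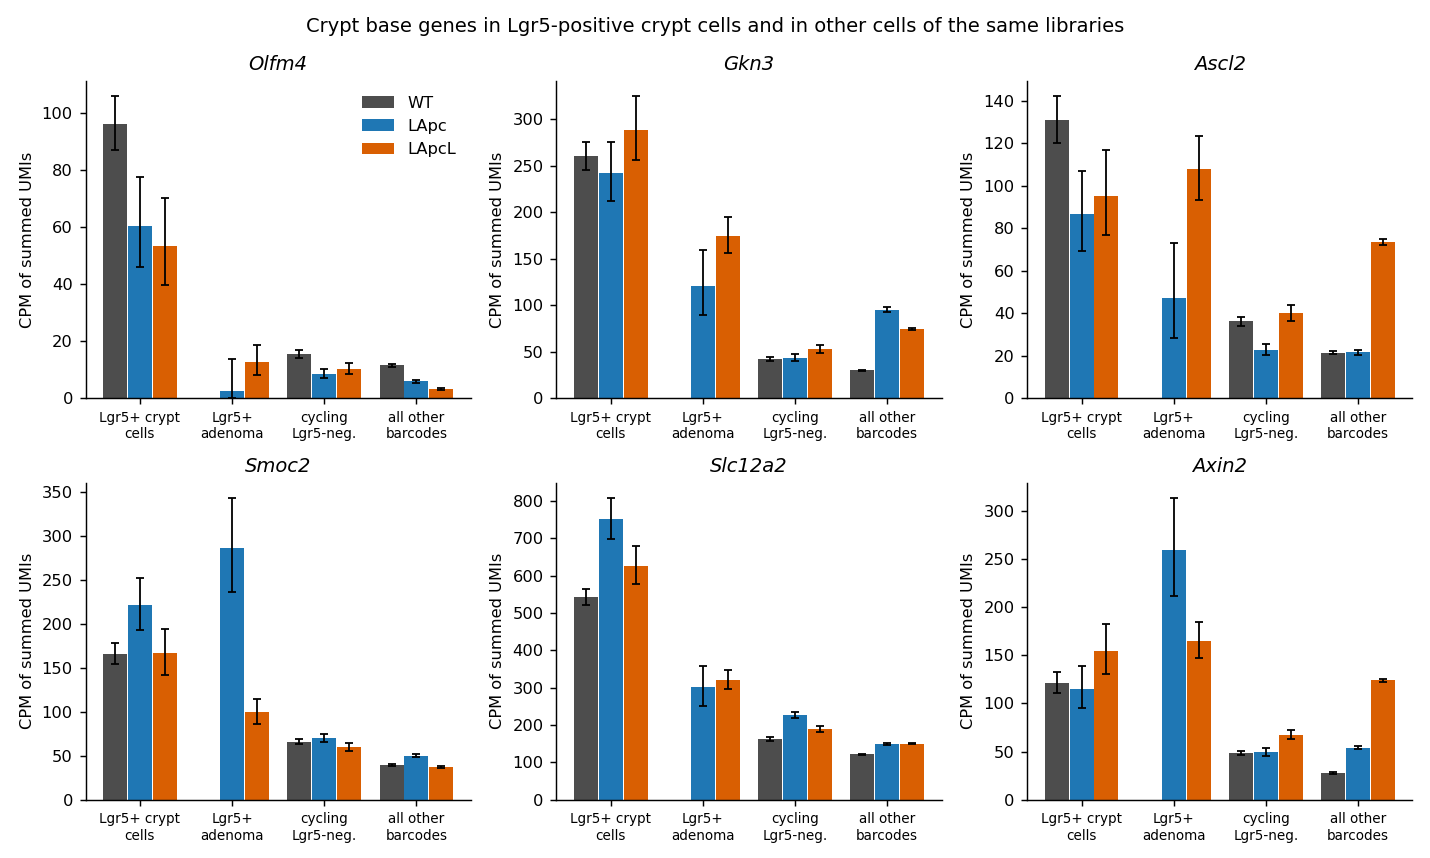
CPM of *Olfm4*, *Gkn3*, *Ascl2*, *Smoc2*, *Slc12a2* and *Axin2* (vertical axes) in 4 sets of cells (horizontal axis) of each library; bars are the level of the summed UMIs and lines the exact 95% Poisson interval, and sets under 50 cells are left out. *Olfm4* was high in the *Lgr5*-positive crypt cells of every library and at 2.47 and 12.6 CPM in the *Lgr5*-positive adenoma cells of *LApc* and *LApcL*.

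Among cells of WT that met the other limits, the levels of crypt base genes were higher in cells with more *Lgr5* UMIs. Cells with 0, 1, 2, 3 to 4 and at least 5 *Lgr5* UMIs held *Olfm4* at 12.2, 66.3, 91.6, 97.5 and 123 CPM. *Gkn3* went through 33.1, 164, 250, 259 and 341 CPM, and *Smoc2* through 45.9, 119, 154, 176 and 215 CPM. *Fabp1*, which encodes the enterocyte fatty acid carrier, went the other way, from 2884 to 848, 385, 347 and 461 CPM. Cells with a single *Lgr5* UMI, which the rule leaves out, thus lay between the *Lgr5*-negative cells and the cells described here for these 4 genes. The same order of the first 3 classes was seen in *Olfm4* of *LApc* (5.97, 41.0 and 49.5 CPM) and of *LApcL* (7.40, 44.3 and 50.8 CPM). With 3 to 4 UMIs there were 28 cells in *LApc* and 22 in *LApcL*, and their intervals were wide.

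**Figure D2:**
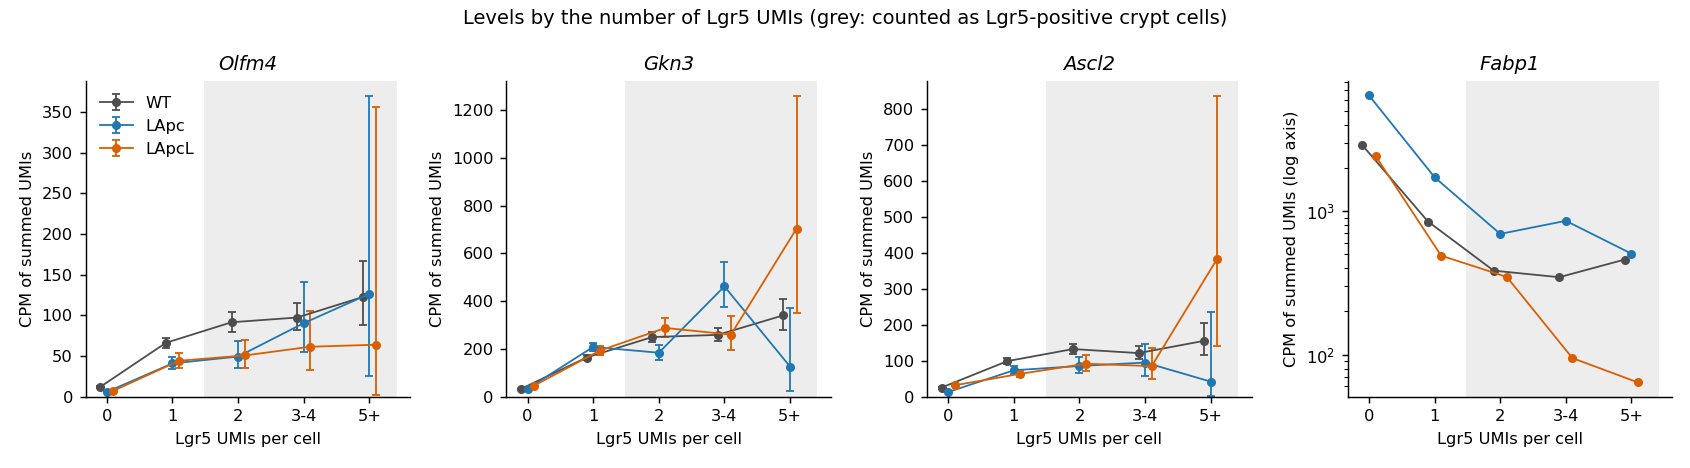
CPM (vertical axes, logarithmic for *Fabp1*) of 3 crypt base genes and the enterocyte gene *Fabp1* against the number of *Lgr5* UMIs per cell (horizontal axis) in the 3 libraries; lines are exact 95% Poisson intervals for the crypt base genes, and grey marks the *Lgr5*-positive crypt cells. The class of at least 5 UMIs holds 27 cells of WT, 3 of *LApc* and 1 of *LApcL*.

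The genes that stood out most from all other kept barcodes were ranked by the lowest of the 3 log2 ratios among the libraries. Against those barcodes, 26, 23 and 18 of 28 measured crypt base genes were at least 2-fold higher in WT, *LApc* and *LApcL*, where 8.02%, 5.08% and 2.78% of all genes were, and the cells had been chosen by a gene of that programme. *Olfm4* led with log2 ratios of 3.07 (2.91 to 3.23), 3.35 (2.93 to 3.75) and 4.11 (3.67 to 4.52). *Aqp4*, a water channel gene, stood at 61.0, 85.6 and 67.0 CPM, and *Slc12a2*, which encodes a basolateral sodium, potassium and chloride cotransporter of secreting crypt cells, at 542, 752 and 626 CPM. *Clca3b*, *Cdk6* and *Cdca7* stood at 658, 492 and 474, at 124, 170 and 147, and at 302, 256 and 339 CPM. *Cdk6* encodes a kinase of the G1 phase of the cell cycle. *Rgmb*, *Nrtn*, *Cdo1*, *Pdgfa*, *Kcnq1*, *Cps1* and *Kcne3* completed the 15 leading genes with *Smoc2* and *Gkn3*. *Kcnq1* and *Kcne3* encode the subunits of a potassium channel that drives chloride secretion in crypts, and *Cps1* an enzyme of the urea cycle.

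Promoter sequence was examined for the core of the Tcf/Lef site, CTTTGA or its reverse complement TCAAAG, in the 250 bases before the start of each gene. Of 32 genes listed as crypt base genes, 19 had a window in the RefSeq table for GRCm38.p6, and 3 of the 19 (15.8%) held a match, the same share as 4280 of all 27025 windows (15.8%). Of 17 Wnt target and feedback genes, 10 had a window and 1 held matches. Among the 15 leading genes, 0 of 9 windows held one, and the motif was in 498 of 3972 windows of the genes measured in these cells (12.5%). The 4 windows with a match are shown because they are the listed ones in which the site occurs and because *Tnfrsf19* and *Cyp2e1* are the 2 crypt base genes that were at least 2-fold higher in *LApcL* than in *LApc*. Capitals mark the motif, and each sequence reads 5′ to 3′ on the strand of the gene.
*Tnfrsf19*, chr14:61037988-61038237, minus strand: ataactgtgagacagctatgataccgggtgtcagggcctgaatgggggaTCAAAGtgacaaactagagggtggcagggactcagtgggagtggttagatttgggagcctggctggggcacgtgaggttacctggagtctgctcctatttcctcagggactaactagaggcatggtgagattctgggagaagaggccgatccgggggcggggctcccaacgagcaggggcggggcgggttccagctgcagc
*Cyp2e1*, chr7:140763569-140763818, plus strand: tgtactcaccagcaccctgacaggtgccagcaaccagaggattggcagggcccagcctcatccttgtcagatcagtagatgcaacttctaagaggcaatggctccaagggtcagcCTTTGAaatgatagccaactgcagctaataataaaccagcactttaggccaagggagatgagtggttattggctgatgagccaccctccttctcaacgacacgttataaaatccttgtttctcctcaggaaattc
*Scn2b*, chr9:45117626-45117875, plus strand: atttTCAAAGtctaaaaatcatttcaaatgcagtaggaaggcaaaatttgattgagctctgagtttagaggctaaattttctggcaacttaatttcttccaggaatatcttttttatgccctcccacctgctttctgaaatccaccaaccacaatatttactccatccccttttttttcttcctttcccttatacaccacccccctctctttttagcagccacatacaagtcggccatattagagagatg
*Sp5*, chr2:70474673-70474922, plus strand: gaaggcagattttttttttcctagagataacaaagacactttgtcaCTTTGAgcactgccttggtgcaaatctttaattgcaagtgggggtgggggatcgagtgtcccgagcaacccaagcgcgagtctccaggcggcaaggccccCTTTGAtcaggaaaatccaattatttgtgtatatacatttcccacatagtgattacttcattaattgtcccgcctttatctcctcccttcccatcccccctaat
The match begins 201 bases before the start of *Tnfrsf19*, 135 before that of *Cyp2e1*, 246 before that of *Scn2b*, and 204 and 104 before that of *Sp5*, a Wnt target that encodes a zinc finger repressor. A match of these letters is a description of the window and not a measured binding site.

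Compared with the cycling *Lgr5*-negative cells of the same library, the *Lgr5*-positive crypt cells held more of nearly every crypt base gene. The cycling cells met the other limits of the rule, had 0 *Lgr5* UMIs and at least 4 summed UMIs of 7 mitotic genes, and numbered 2543 in WT, 1461 in *LApc* and 992 in *LApcL*. Of 28 crypt base genes measured, 21 were at least 2-fold higher in the *Lgr5*-positive cells of WT, 22 in *LApc* and 23 in *LApcL*, and none was 2-fold lower. Over all 5100 genes measured, 2.69%, 3.24% and 2.88% were that much higher. The choice of both sets by *Lgr5*, a gene of that programme, fixes this excess in part. The median log2 ratio of the list was 1.69, 1.68 and 1.39, against −0.09, −0.08 and −0.07 over all genes. *Tnfrsf19*, a receptor gene of the tumor necrosis factor receptor family, was at 25.0 CPM in WT against 2.61 CPM in cycling cells, at 17.3 against 3.19 in *LApc* and at 41.9 against 6.59 in *LApcL*. *Phlda1* had log2 ratios of 2.37 (2.20 to 2.54), 1.31 (0.98 to 1.62) and 0.81 (0.50 to 1.11), the smallest where the cycling cells themselves held 60.8 CPM.

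Wnt target genes followed the same direction, which the choice of both sets by *Lgr5*, a marker of Wnt signalling, fixes in part. Of 12 measured, 7 were at least 2-fold higher than in cycling cells in WT, 7 in *LApc* and 5 in *LApcL*. Over all genes 2.69%, 3.24% and 2.88% were. The medians of the list were 1.04, 1.13 and 0.62. Against all other kept barcodes 8, 8 and 0 of the 12 were at least 2-fold higher, where 8.02%, 5.08% and 2.78% of all genes were. *Axin2*, the feedback inhibitor that scaffolds β-catenin destruction, stood at 121 CPM against 48.6 in WT, 115 against 49.4 in *LApc* and 155 against 67.6 in *LApcL*. *Cd44*, a hyaluronan receptor gene, stood at 55.1 against 19.8, 91.7 against 37.5 and 110 against 74.1 CPM. Its log2 ratio was 1.48 (1.26 to 1.70) in WT and 0.57 (0.26 to 0.86) in *LApcL*, and this difference between libraries was not tested. *Ccnd2*, a cyclin gene, went the other way, with log2 ratios of −0.35, −0.60 and −0.16.

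The Notch pathway had few measurable members in these cells. *Notch1* stood at 51.4, 46.9 and 45.0 CPM, against 18.6, 17.5 and 15.4 in cycling cells, log2 ratios of 1.47 (1.24 to 1.69), 1.42 (0.93 to 1.88) and 1.54 (1.02 to 2.04). *Hes1*, the effector that keeps crypt cells from secretory fate, stood at 224, 213 and 257 CPM, which was less than 2-fold above cycling cells in every library. Of the remaining genes of the list of 16, only *Nrarp* and *Dtx4* reached the limit of 20 CPM.

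Mitotic genes were lower than in the cycling cells, which the choice of those cells fixes in part. At least 2-fold lower were 6 of 15 mitotic genes in WT, 8 in *LApc* and 11 in *LApcL*, against 1.1%, 2% and 3.22% of all genes. Over 17 replication genes the medians were 0.01, −0.07 and 0.05.

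Against the *Lgr5*-positive adenoma cells, defined by at least 2 *Lgr5* UMIs and at least 2 adenoma UMIs, the *Lgr5*-positive crypt cells differed in part of the crypt base genes. There were 52 such adenoma cells in *LApc* and 157 in *LApcL*. In *LApc*, 11 of 28 crypt base genes were at least 2-fold higher in the crypt cells and 4 were lower, where 6.67% of all genes were higher and 6.63% lower. In *LApcL*, 6 of 28 were higher and none lower, where 2.27% of all genes were higher. *Olfm4* showed log2 ratios of 4.61 (2.07 to 9.93) and 2.08 (1.36 to 2.85), *Clca3b* of 2.21 (1.76 to 2.70) and 2.12 (1.88 to 2.36), and *Cps1* of 3.43 (2.84 to 4.08) and 1.18 (0.98 to 1.37). *Ascl2* differed by 0.89 (0.16 to 1.69) in *LApc* and −0.18 (−0.55 to 0.19) in *LApcL*. Of 12 Wnt targets measured, 0 were at least 2-fold higher in the crypt cells of either library, and 2 in *LApc* and 0 in *LApcL* were lower. *Axin2* was lower in the crypt cells of *LApc*, at 115 against 259 CPM, and at 155 against 165 CPM in *LApcL*. The targets of Bmp signalling *Id1*, *Id2* and *Id3*, which encode inhibitors of differentiation factors, were lower in the crypt cells of both libraries, *Id3* at 62.1 against 658 CPM in *LApc* and 118 against 529 CPM in *LApcL*.

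Of 18 adenoma genes that the rule did not use, 12 were under a mean of 20 CPM. *Prox1*, a homeobox gene of adenoma cells, stood at 4.67, 14.3 and 10.5 CPM in the *Lgr5*-positive crypt cells, against 326 and 71.9 in the *Lgr5*-positive adenoma cells of *LApc* and *LApcL*. *Wif1* and *Dkk2*, which encode Wnt antagonists, had no UMI in the *Lgr5*-positive crypt cells of any library. *Sox4*, a transcription factor gene that normal crypt cells also express, was at 262, 215 and 235 CPM, and the water channel gene *Aqp1* at 149, 280 and 217 CPM. The summed level of the 18 genes was 533, 788 and 837 CPM, against 3835 and 2085 CPM in those adenoma cells. *Ifitm1*, an interferon-induced membrane protein gene, was at 0.701, 65.2 and 140 CPM. It was present in 3 of 379, 20 of 133 and 52 of 103 cells. After thinning its share was 11.5% (6.55 to 18.2) in *LApc* and 26.2% (18.0 to 35.8) in *LApcL*, beside 7.17% (6.15 to 8.31) and 31.7% (29.0 to 34.4) of enterocytes. The level in enterocytes was 0.452, 72.1 and 293 CPM, and the enterocytes of *LApcL* also held *Sox17* at 80.6 and *Msx1* at 89.9 CPM. The part of RNA from other cells in the *Ifitm1* level was not tested.

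Within the limit, cells with 1 adenoma UMI differed from those with 0 more for some genes than for others. In *LApcL*, the 64 cells with 0 and the 39 with 1 such UMI held *S100g*, a calcium-binding protein gene, at 269 and 308 CPM, whereas cells outside held it at 361 CPM with 2 UMIs (18 cells) and 3762 CPM with at least 3 (139 cells). *Olfm4* was at 56.8, 47.6, 17.2 and 12.1 CPM in the same classes. *Ifitm1* was at 95.2, 216, 315 and 1288 CPM. *LApc* had 8 cells with 2 adenoma UMIs, in which *S100g* stood at 10116 CPM and *Olfm4* at 0. The class of 2 adenoma UMIs therefore resembled the crypt cells in *S100g* in *LApcL* and not in *LApc*. These classes rest on the genes of the rule and are given as descriptions.

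**Figure D3:**
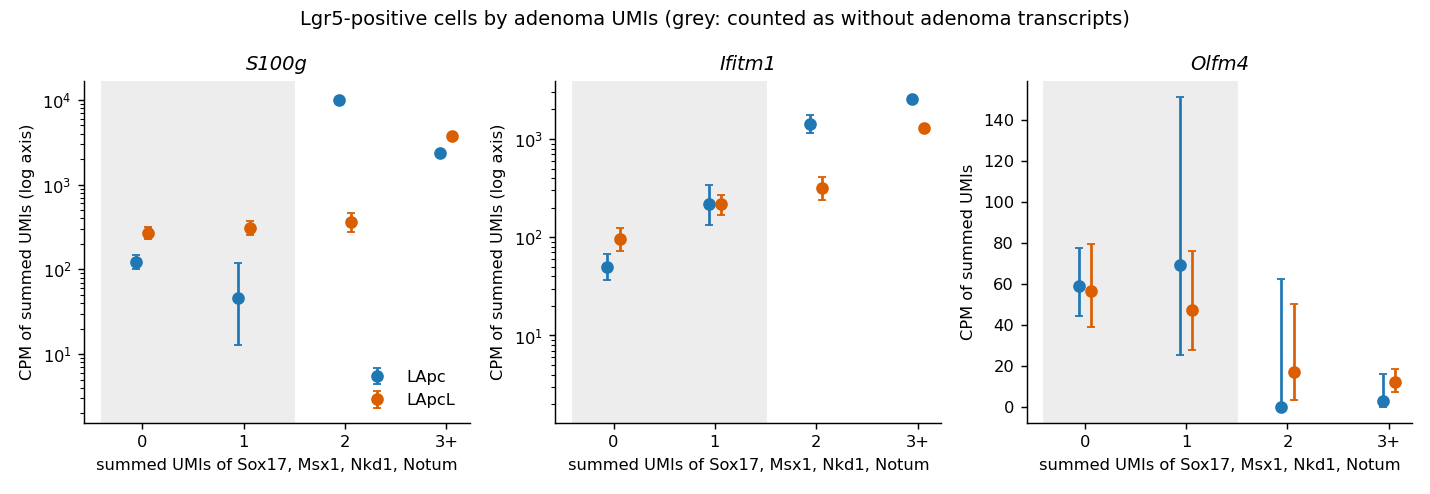
CPM (vertical axes, logarithmic for *S100g* and *Ifitm1*) in *Lgr5*-positive cells of *LApc* and *LApcL* by the summed UMIs of *Sox17*, *Msx1*, *Nkd1* and *Notum* (horizontal axis), with exact 95% Poisson intervals; grey marks the cells counted as without adenoma transcripts. In *LApcL*, *S100g* stayed between 269 and 361 CPM up to 2 UMIs and stood at 3762 CPM with 3 or more.

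Between libraries, the *Lgr5*-positive crypt cells were compared over 5100 genes with a mean of at least 20 CPM, the 8 genes of the rule left out, and a gene was counted when it differed at least 2-fold. *LApc* had 96 genes higher and 92 lower than WT (1.88% and 1.8%). *LApcL* had 56 higher and 124 lower than WT (1.1% and 2.43%), and 71 higher and 175 lower than *LApc* (1.39% and 3.43%). When the cell with the most UMIs of a gene was left out of each library, 166 of the 188, 167 of the 180 and 230 of the 246 remained past 2-fold. Counted in either direction, the genes past 2-fold were 3.69%, 3.53% and 4.82% of those measured. Any pair of these comparisons shares 1 library.

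In each comparison of libraries 3 of 28 measured crypt base genes differed at least 2-fold, and they did so in both directions. Over all genes 3.69% did so in *LApc* over WT, 3.53% in *LApcL* over WT and 4.82% in *LApcL* over *LApc*. Of 28 genes, 1 was at least 2-fold higher and 2 were lower in *LApc*, the same numbers applied in *LApcL* over WT, and 2 were higher and 1 lower in *LApcL* over *LApc*. Over all genes 1.88% were higher and 1.8% lower in *LApc* over WT. The shares were 1.1% and 2.43% in *LApcL* over WT, and 1.39% and 3.43% in *LApcL* over *LApc*. The medians were 0.06, 0.00 and −0.07, beside 0.00, −0.02 and −0.02 over all genes. The interval lay above 0 for 8 genes and below 0 for 8 in *LApc* over WT, and for 6 and 7 in *LApcL* over WT. Over all 5100 genes it did so for 681 and 705, and for 514 and 621. *Prelp*, a matrix proteoglycan gene, was at 68.9 CPM in WT, 22.4 in *LApc* and 12.6 in *LApcL*, with log2 ratios to WT of −1.62 (−2.32 to −0.99) and −2.46 (−3.42 to −1.63). *Slc14a1*, a urea transporter gene, was at 37.6, 13.2 and 10.5 CPM. Both were also lower in the cycling cells of *LApc* and *LApcL*, where *Prelp* stood at 22.2, 7.38 and 4.71 CPM. *Nrn1*, which encodes neuritin, was at 26.2, 64.2 and 26.2 CPM and was the gene higher in *LApc*. *Cyp2e1*, a cytochrome gene, was at 16.1, 18.3 and 41.9 CPM, and *Tnfrsf19* at 25.0, 17.3 and 41.9 CPM, both highest in *LApcL*.

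The leading markers moved by less than 2-fold. *Olfm4* had log2 ratios of −0.68 (−1.09 to −0.28) for *LApc* over WT and −0.85 (−1.30 to −0.42) for *LApcL* over WT. *Ascl2* had −0.59 (−0.94 to −0.26) and −0.46 (−0.79 to −0.14), but −0.075 (−1.05 to 0.85) and 0.0035 (−1.15 to 1.05) when cells were thinned to 3000 UMIs before the rule. The level of *Gkn3* was within counting error of WT in both, at −0.10 (−0.31 to 0.10) and 0.15 (−0.04 to 0.34), whereas *Smoc2* was higher in *LApc* alone, at 0.41 (0.19 to 0.64) against 0.01 (−0.25 to 0.26). *Sox9*, a transcription factor of crypt cells, was at 151, 155 and 147 CPM, and *Prom1* at 80.1, 135 and 134 CPM.

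**Figure D4:**
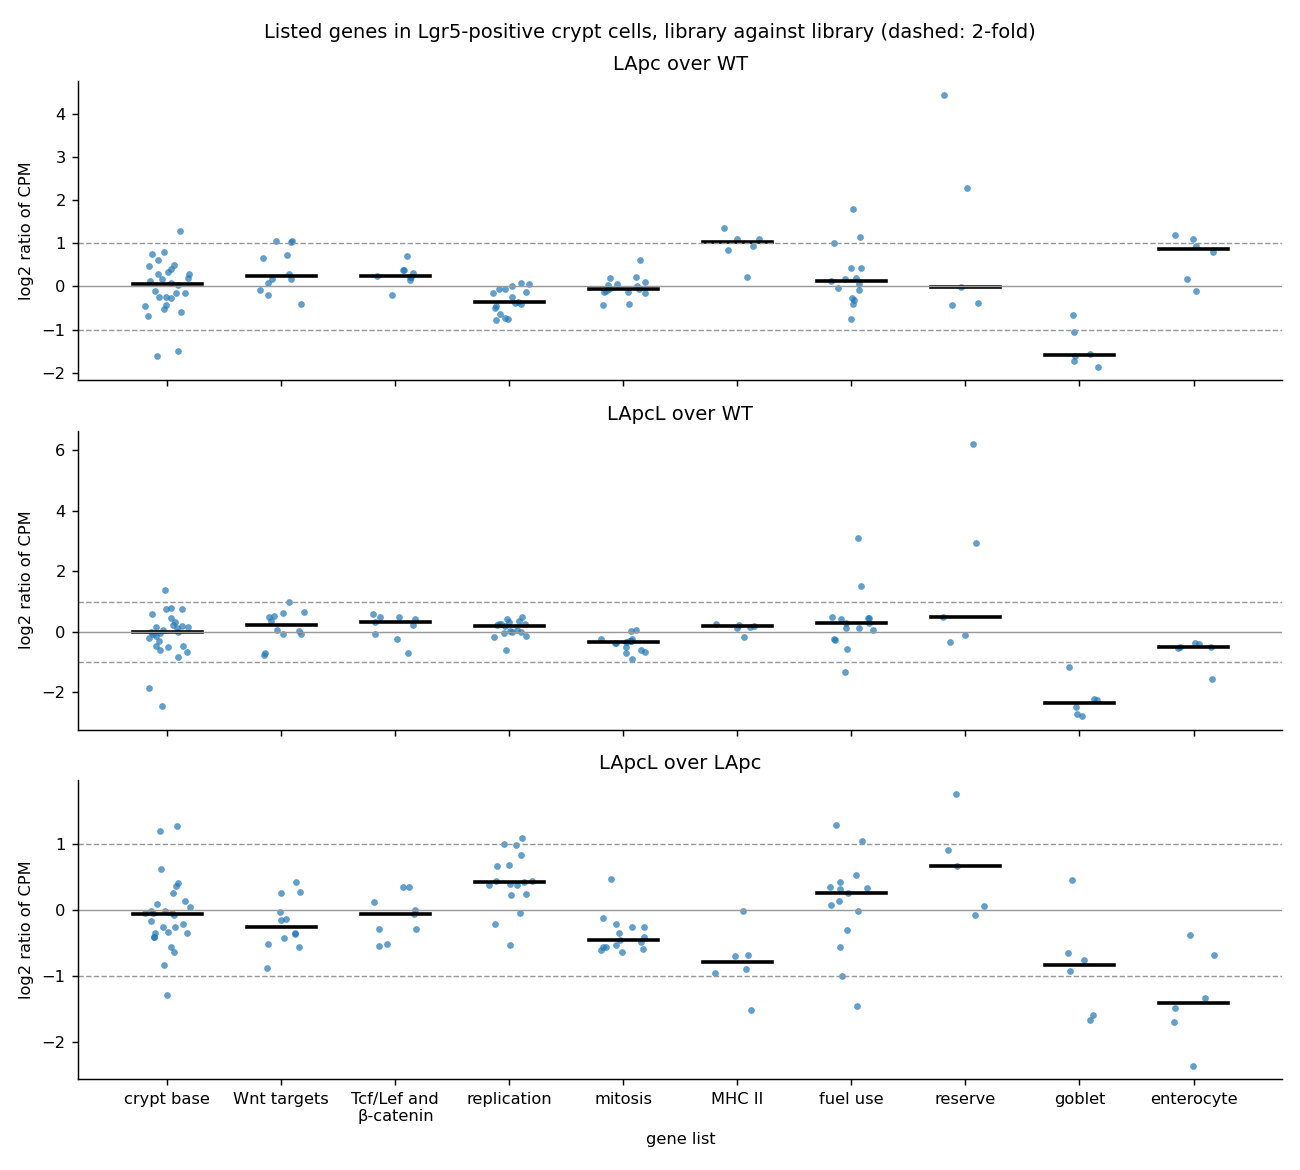
Log2 ratios of CPM (vertical axes) of the measured genes of 10 lists (horizontal axis) in *Lgr5*-positive crypt cells for the 3 comparisons of libraries; points are genes, thick lines the median of each list and dashed lines 2-fold. The crypt base median lies near 0 in each comparison, whereas MHC II genes lie above 0 in *LApc* over WT with a median of 1.02 and goblet genes below 0 in *LApc* over WT and *LApcL* over WT.

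Of 12 Wnt targets measured, 3 were at least 2-fold higher in *LApc* than in WT and none was lower. Over all genes 1.88% were that much higher and 1.8% lower. *Rnf43* and *Znrf3* encode ubiquitin ligases that remove Wnt receptors from the membrane. *Rnf43* was at 43.7 CPM in WT, 89.7 in *LApc* and 62.8 in *LApcL*, and *Znrf3* at 17.3, 35.7 and 24.1 CPM. With *Ephb3*, an Eph receptor gene that positions crypt cells, at 26.9, 56.0 and 41.9 CPM, they were the 3 genes past 2-fold. Their log2 ratios were 1.04 (0.66 to 1.41), 1.04 (0.42 to 1.64) and 1.06 (0.57 to 1.54), just past 2-fold. None of the 12 was past 2-fold in *LApcL* over WT or over *LApc*, and the medians of the list were 0.23, 0.21 and −0.26. *Cd44* lay at the limit in *LApcL* over WT, at 1.00 (0.65 to 1.33). *Axin2* had −0.08 (−0.38 to 0.22) in *LApc* over WT and 0.35 (0.08 to 0.62) in *LApcL* over WT. *Ccnd1* was at 145, 109 and 84.8 CPM, and *Myc* at 41.8, 50.9 and 39.8 CPM.

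None of the 9 measured genes of the Tcf/Lef and β-catenin list was past 2-fold in any comparison. *Ctnnb1*, which encodes β-catenin, was at 189, 247 and 237 CPM, and *Tcf7l2*, the main factor of the family in the normal epithelium, at 53.0, 62.1 and 61.7 CPM. *Tcf7* was below the limit for measured genes, at 5.37, 8.15 and 20.9 CPM. Of the receptors, *Lgr4* was at 60.7, 90.7 and 86.9 CPM, and the frizzled gene *Fzd5* was lower in *LApcL* than in *LApc*, at 18.8 against 42.8 CPM with a log2 ratio of −1.18 (−2.07 to −0.36). *Erbb3*, a receptor of the Egf receptor family, was at 42.3, 109 and 48.1 CPM, and was past 2-fold in *LApc* over WT and in *LApcL* over *LApc*. *Id2* went the other way, at 38.5, 15.3 and 45.0 CPM.

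MHC class II genes, which encode the proteins that present peptides to helper T cells, were higher in *LApc* than in WT for part of the list. *Cd74*, the invariant chain, was at 549 CPM in WT, 1187 in *LApc* and 639 in *LApcL*. *H2-Aa* was at 96.5, 206 and 106 CPM, and *H2-DMb1* at 22.4, 57.1 and 19.9 CPM, and these were the 3 of 6 genes at least 2-fold higher in *LApc*. Over all genes 1.88% were that much higher. The log2 ratio of *Cd74* was 1.11 (1.01 to 1.21) in *LApc* over WT and 0.22 (0.09 to 0.35) in *LApcL* over WT. At equal depth a *Cd74* UMI was present in 45.9% (40.8 to 51.1) of the cells of WT, 87.8% (80.9 to 92.9) of *LApc* and 73.8% (64.2 to 82.0) of *LApcL*. Enterocytes moved with them, at 33.8%, 72.2% and 47.8% of cells and at 464, 1166 and 624 CPM, and the part of this library-wide level in the result was not tested. Within libraries the crypt cells held more *Cd74* than cycling cells, by 0.57 (0.51 to 0.64), 1.03 (0.94 to 1.12) and 0.80 (0.67 to 0.92). All 6 MHC class II genes were at least 2-fold higher than in the *Lgr5*-positive adenoma cells of *LApcL*, but 1 of 6 in *LApc*. Over all genes 2.27% were that much higher in *LApcL* and 6.67% in *LApc*. None of 7 MHC class I genes was past 2-fold between libraries.

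Genes of fuel use differed in single members. *Acadl*, a gene of fatty acid oxidation, was at 30.4, 67.2 and 85.8 CPM. *Ppard*, a nuclear receptor gene that responds to fatty acids, was lower in *LApcL*, at 28.7, 31.6 and 11.5 CPM. The medians of the 15 measured genes were 0.14, 0.28 and 0.26.

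Proliferation genes shifted by less than 2-fold with 1 exception. The 17 replication genes had medians of −0.36 in *LApc* over WT, 0.20 in *LApcL* over WT and 0.43 in *LApcL* over *LApc*. *Hells*, a chromatin remodeller of replicating cells, was at 115, 67.2 and 143 CPM, and was the only one past 2-fold, in *LApcL* over *LApc*. The 15 mitotic genes had medians of −0.05, −0.35 and −0.46, and none was past 2-fold. An *Mki67* UMI was present after thinning in 21.6% (17.6 to 26.1) of the cells of WT, 23.7% (16.7 to 31.9) of *LApc* and 15.5% (9.15 to 24.0) of *LApcL*, and these intervals overlapped. Without thinning the shares were 46.7%, 37.6% and 31.1%. Enterocytes gave 9.21%, 4.81% and 8.92% at equal depth, and cycling cells 40.8%, 46.6% and 36.1%.

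Cells without any UMI of the 7 mitotic genes carried the crypt base markers too. In WT, the 74 cells with none held *Olfm4* at 113 and *Gkn3* at 329 CPM, and the 181 with at least 4 held them at 81.8 and 222 CPM. In *LApc*, *Olfm4* was at 101 CPM in 51 cells with none and at 36.1 CPM in 51 with at least 4. The order was not the same in *LApcL*, with 48.8 CPM in 16 cells and 66.8 CPM in 41. Cells with more mitotic UMIs were also deeper, at medians of 7937.5 and 13226 UMIs in WT, so the classes differ in depth as well.

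Reserve and injury-response stem cell genes gave higher levels for *Clu* and *S100a6*. *Clu*, which encodes clusterin and marks regenerating intestinal cells, was at 3.04, 66.2 and 224 CPM. It was carried by 11 of 379, 22 of 133 and 44 of 103 cells, and 66.2% of its UMIs in *LApc* and 35.0% in *LApcL* lay in a single cell. Without the top cell of each library *Clu* stood at 2.58, 22.7 and 147 CPM. At equal depth *Clu* was found in 0.264%, 9.16% and 22.3% of the cells, beside 0.253%, 8.44% and 16.2% of enterocytes. All other kept barcodes held *Clu* in 0.254%, 15.6% and 26.4% of cells. In *Lgr5*-positive adenoma cells the share was 34.6% (*LApc*) and 38.9% (*LApcL*), so *Clu* was not particular to the crypt cells. *S100a6*, a calcium-binding protein gene, was at 61.2, 295 and 468 CPM, and enterocytes were higher in every library, at 257, 593 and 1517 CPM. In *LApc* 45.5% of its UMIs lay in 1 cell, and without the top cell of each library it was at 58.7, 163 and 406 CPM. The remaining measured genes of the list, *Hopx*, *Krt19* and *Krt7*, were within 2-fold in every comparison.

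Among genes ranked by the bound of their interval nearest to 0, several were spread over many cells and were above or below the enterocyte level. *Cirbp*, a cold-inducible RNA-binding protein gene, was at 24.3, 111 and 97.3 CPM, in 86 of 379, 68 of 133 and 63 of 103 cells. Its thinned shares were 6.86%, 29.8% and 25.2%, beside 3.93%, 11.4% and 11.6% of enterocytes. Cycling cells held *Cirbp* in 6.37%, 19.8% and 15.9% of cells, and *Lgr5*-positive adenoma cells in 42.3% (*LApc*) and 17.8% (*LApcL*). *Hsph1*, a heat shock protein gene, was at 128, 17.3 and 33.5 CPM, with shares of 30.3%, 5.34% and 8.74%, beside 18.9%, 1.79% and 4.93% in enterocytes. Cycling cells held *Hsph1* about as often as the crypt cells, at 30.8%, 5.48% and 8.44%, so *Hsph1* was not particular to the crypt cells. *Dnajb1*, of the same response, was at 51.6, 16.3 and 15.7 CPM. *Hspa1a*, another heat shock gene, had 22.7 CPM in WT and 2.04 and 0 CPM in the others, beside 53.0, 0.366 and 0.601 CPM in enterocytes. The levels of these 4 genes in enterocytes were ordered between WT and the other libraries in the same way, and the part of that library-wide level in the result was not tested.

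*Mmp7* and *Apobec3* were highest in *LApcL*. *Mmp7*, a matrix metalloproteinase gene of Paneth cells, was at 71.0, 95.8 and 313 CPM, and at equal depth in 10.8% (7.88 to 14.4), 21.4% (14.7 to 29.4) and 38.8% (29.4 to 48.9) of the cells. Enterocytes held it in 11.3%, 7.22% and 12.9% of cells, and cycling cells in 9.95%, 9.58% and 14.9%. *Lgr5*-positive adenoma cells held *Mmp7* in 57.7% (*LApc*) and 43.3% (*LApcL*) of cells. In all other kept barcodes the shares were 27.1%, 22.3% and 29.7%, so *Mmp7* was not particular to the crypt cells. *Apobec3*, which encodes an antiviral cytidine deaminase, was at 30.4, 8.15 and 65.9 CPM, in 100 of 379, 8 of 133 and 39 of 103 cells. After thinning, 0 of 131 cells of *LApc* held it, with an interval up to 2.78%, and 5.01% and 12.6% did in WT and *LApcL*. Enterocytes of *LApc* were also lowest, at 1.18%, against 3.93% and 5.18%. Other cells of *LApcL* held *Apobec3* about as often, at 12.5% of cycling cells, 15.3% of *Lgr5*-positive adenoma cells and 11.8% of all other kept barcodes.

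**Figure D5:**
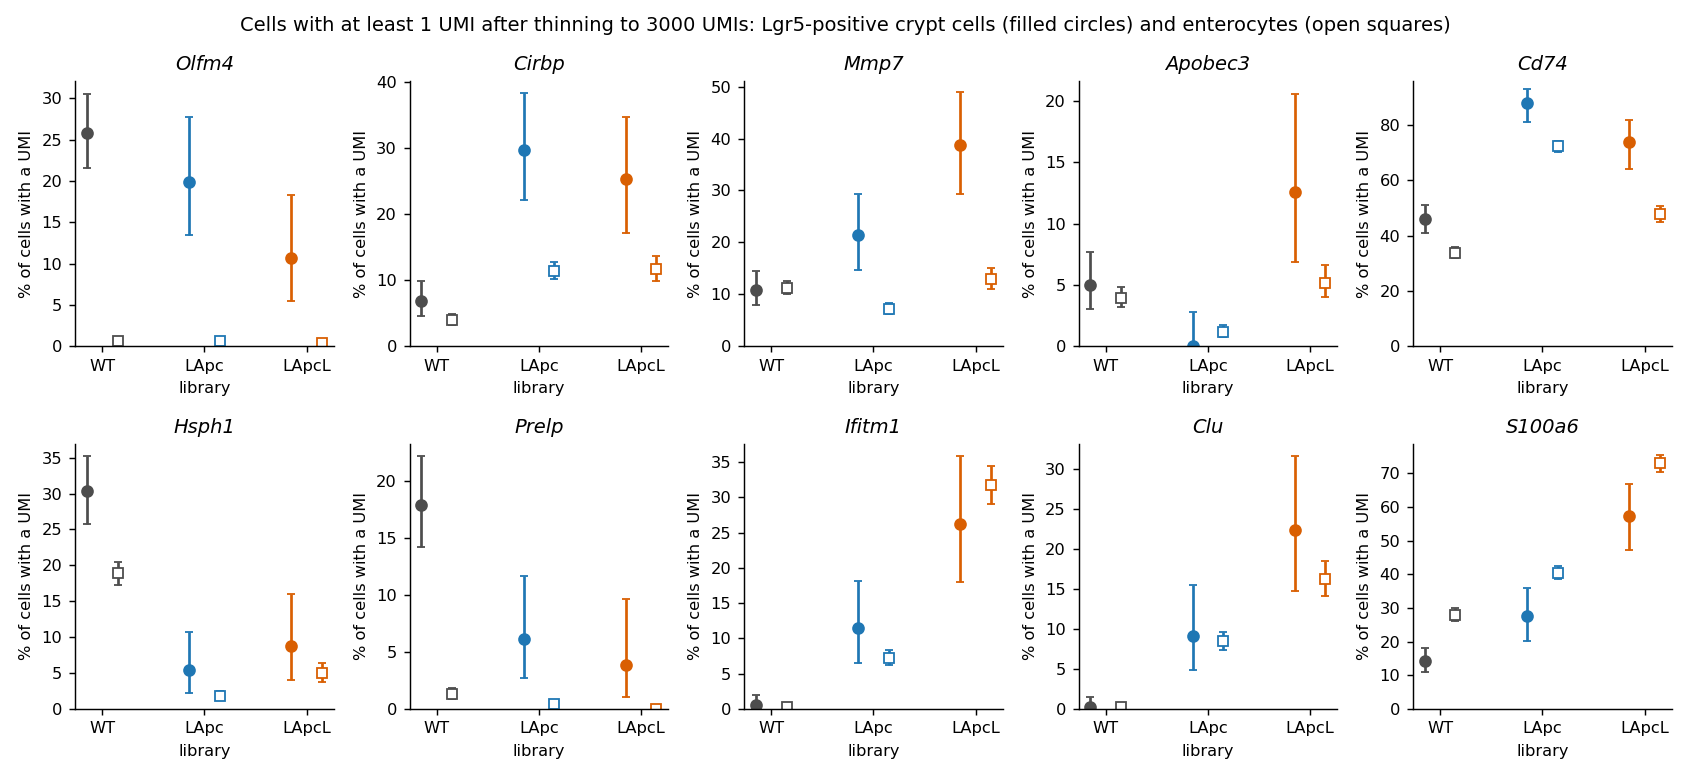
Percent of cells with at least 1 UMI after thinning to 3000 UMIs (vertical axes) for 10 genes in the 3 libraries (horizontal axis), in *Lgr5*-positive crypt cells (filled circles) and enterocytes (open squares), with exact 95% Clopper-Pearson intervals. *Olfm4*, *Cirbp* and *Mmp7* stood above the enterocyte share in *LApc* and *LApcL*, whereas the intervals of *Ifitm1* in both libraries overlapped those of enterocytes.

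Other leading genes sat at or below the level of enterocytes, or in 1 cell. *Reg3b*, an antimicrobial lectin gene, was at 1089, 6714 and 2255 CPM, with 7406, 20698 and 10180 CPM in enterocytes. *Mt2*, a metallothionein gene, was at 28.5, 253 and 123 CPM, with 79.6, 599 and 119 CPM in enterocytes. *Fabp6*, the ileal bile acid carrier, was at 932, 894 and 45.0 CPM and at 7359, 2929 and 1958 CPM in enterocytes, and without the cell with the most UMIs it stood at 721, 421 and 40.0 CPM. *Sst* of WT (96.5% of UMIs), *Tac1* of *LApc* (88.4%), *Pyy* of *LApcL* (92.2%) and *Ly6d* of *LApcL* (81.8%) came mostly from a single cell each.

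A part of the *Lgr5*-positive crypt cells carried tuft or enteroendocrine programmes. At least 3 of 5 tuft cell markers, genes of the chemosensory cell, were detected in 31 of 379 cells of WT (8.18%), 0 of 133 of *LApc* and 6 of 103 of *LApcL* (5.83%). The 31 cells of WT held 225 of 234 UMIs of *Dclk1* and 445 of 460 of *Rgs13*. Their *Lgr5* level was 189 CPM against 244 CPM in cells with neither tuft nor enteroendocrine markers, but *Olfm4* was at 35.7 against 101 CPM and *Gkn3* at 71.4 against 281 CPM. In *LApc* all 5 tuft markers were at 0. Among all kept cells with at least 3 tuft markers, 33 of 395 (8.35%, 5.82 to 11.5) had at least 2 *Lgr5* UMIs in WT, 1 of 103 (0.971%, 0.0246 to 5.29) in *LApc* and 21 of 513 (4.09%, 2.55 to 6.19) in *LApcL*. At least 3 enteroendocrine markers were detected in 11, 4 and 1 of the *Lgr5*-positive crypt cells. In WT 39 cells met either criterion, so some cells met both, and no doublet filter was applied. When the cells with either programme were left out, the genes past 2-fold numbered 175, 185 and 249.

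Transcripts of enterocytes, goblet cells and Paneth cells were at lower levels than in all other kept barcodes, whereas those of enteroendocrine and tuft cells were not in every library. Enteroendocrine genes were at 360, 747 and 91.0 CPM, against 329, 733 and 228 CPM in the other barcodes, and tuft genes at 202, 0 and 73.3 CPM, against 88.2, 52.7 and 67.6 CPM. Of the enteroendocrine UMIs, 1366 of 1543 lay in 12 cells of WT, 711 of 733 in 4 of *LApc* and 55 of 87 in 1 of *LApcL*. Of the tuft UMIs, 818 of 863 lay in 29 cells of WT and 55 of 70 in 4 of *LApcL*. Summed over 6 markers, enterocyte genes were at 2292, 4202 and 1373 CPM, and goblet genes at 5354, 2331 and 1453 CPM, with all markers of both lists seen in every library. Paneth genes were at 1231, 300 and 835 CPM, against 20976, 3121 and 2968 CPM in all other kept barcodes. All other kept barcodes held enterocyte markers at 8458, 17528 and 3614 CPM and goblet markers at 43705, 34653 and 7993 CPM. At least 3 goblet markers were detected in 100%, 85.0% and 73.8% of the *Lgr5*-positive crypt cells. The same criterion was met for Paneth markers by 92.9%, 15.8% and 26.2%, and for enterocyte markers by 98.9%, 98.5% and 88.3%. Between libraries, 5 of 6 goblet genes were at least 2-fold lower in *LApc* than in WT and all 6 in *LApcL*, among them *Muc2*, the main mucin, at 415, 141 and 89.0 CPM. Over all genes 1.8% and 2.43% were that much lower than in WT. Of the 5 Paneth genes measured, 5 were lower in *LApc*, and 4 were higher in *LApcL* than in *LApc*, where 70.9% of the *Lyz1* UMIs of *LApcL* lay in 1 cell. Of the 6 enterocyte genes, 4 were lower in *LApcL* than in *LApc*, with *Fabp1* at 379, 725 and 288 CPM. Over all genes 1.39% were at least 2-fold higher and 3.43% lower in *LApcL* than in *LApc*. The levels of these genes in other cells moved between the libraries as well, and the part of RNA from such cells was not tested. Immune markers were at 3.27, 37.7 and 3.14 CPM, with 34 of the 37 UMIs of *LApc* in 1 cell, and stromal markers at 0.934, 1.02 and 0 CPM.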

How the data were processed

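The authors deposited a matrix of UMI counts for each library, made with Cell Ranger 2.1.1 on its mm10 (GRCm38) reference, without normalization. The authors' cell filters and annotation were not used here. The cells were chosen by the rule in the text and the lists with earlier results of these data known, so no count over them is independent support. For each library the counts of the chosen cells were added up and divided by their total to give CPM, for which exact Poisson limits were computed. A log2 ratio of CPM has limits from the conditional binomial distribution of both counts, and a share of cells has Clopper-Pearson limits, all at the 95% level. Named genes were those of 26 fixed lists (339 genes, 191 of them measured), the 8 genes per comparison and direction whose interval lay farthest from 0 among those with at least 50 CPM in the higher library (mt-, Gm and Rik genes left out), and the 15 leading genes against all other barcodes. A few listed genes below the limit of 20 CPM are given as levels only. As alternatives, doublets (Scrublet in scanpy 1.11.5 at 0.8% per 1000 barcodes), scaling with edgeR 4.0.16 TMM and DESeq2 1.42.0 size factors, depth, the limits of the rule and low-value filters were varied. The ratio and its interval were tested on simulated data with independent Poisson counts, the model that the interval itself assumes. That test does not cover genes whose UMIs lie mostly in a single cell. Figures and sums used Python 3.11.15 with numpy 2.4.6, scipy 1.17.1 and pandas 2.3.3. Library totals ranged from 79696291 to 191509615 UMIs. No replicate existed, so intervals cover counting error only and no p-value was computed. The result of 1 listed gene is not reported here.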

Additional observations from a re-analysis of the deposited data

Results flagged for a closer look

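Genes were singled out when the *Lgr5*-positive crypt cells lay above the cycling *Lgr5*-negative cells in 1 library and below them in another, with both intervals off 0 and both log2 ratios at least 0.5 in size. *Cldn4*, a tight junction gene, had a log2 ratio of 0.61 (0.13 to 1.05) in *LApc* against −0.98 in *LApcL*, where the cycling cells held 74.2 CPM. In *LApc* 32.6% of its UMIs lay in 1 cell, and without that cell it stood at 32.0 CPM, against 30.8 CPM in cycling cells. *Tac1*, an enteroendocrine gene, had 3.68 in *LApc*, with 88.4% of its UMIs in 1 cell, and −0.53 in WT. *Lyz1*, the Paneth cell lysozyme, had 0.53 in *LApcL*, with 70.9% of its UMIs in 1 cell, and −0.86 in *LApc*. *Fabp6* had 1.09 in *LApc*, with 53.5% of its UMIs in 1 cell, and −2.29 in *LApcL*. The differences between libraries were not tested.

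Barcodes outside the filter on genes and mitochondrial UMIs held a few cells that met every other limit. In *LApc* these were 6 of 2350 excluded barcodes (0.255%, 0.0938 to 0.555), with a median of 2433.5 UMIs and 7 UMIs in all of *Olfm4*, *Gkn3*, *Ascl2* and *Smoc2*. WT had 0 of 62 and *LApcL* 0 of 416.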

How the results depend on the processing

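No paired analysis was possible because each genotype had 1 library, and no replicate could be left out. The numbers of genes past 2-fold, 188, 180 and 246 for *LApc* over WT, *LApcL* over WT and *LApcL* over *LApc*, were 1267, 1165 and 1278 when cells were thinned to 3000 UMIs before the rule, 590, 592 and 894 with at least 3 *Lgr5* UMIs, 778, 811 and 1117 with a mean of 5 CPM and 2740, 2779 and 3510 with no filter and 0.5 added to both counts. With at least 3 *Lgr5* UMIs the cells made up 1.33%, 0.285% and 0.136% of kept barcodes in WT, *LApc* and *LApcL*, and after thinning 0.650%, 0.439% and 0.166%. With 0 adenoma UMIs the share in *LApcL* was 0.377% and the sum of the 18 other adenoma genes 749.9 CPM. That sum was 895 CPM in *LApc* with at least 3 *Lgr5* UMIs, and 568 and 953 CPM in WT and *LApc* after thinning. Without thinning an *Mki67* UMI was present in 46.7%, 37.6% and 31.1% of cells. The other 94 of 120 such values stayed within counting error, 1.5 times or, for the crypt base medians, a wider margin. That margin was the median half-width of the intervals of single genes and not the counting error of a median. Of 649 values of single genes 522 stayed, 118 moved and 9 changed sign. With at least 3 *Lgr5* UMIs these were *Ang4* (−1.64), *H2-Ab1* (0.23) and *Pyy* (−0.70) in *LApcL* over *LApc* and *Tac1* (−0.32) in *LApc* over WT. After thinning they were *Apoc3* in *LApcL* over *LApc* (0.68), *Ascl2* in *LApcL* over WT (0.0035) and *Cd44* in *LApc* over WT (−0.065). Without the cells carrying enteroendocrine or tuft markers, an alternative chosen after the data were seen, they were *Chgb* in *LApcL* over *LApc* (0.31) and *Tac1* in *LApc* over WT (−2.08), and 62.9% rather than 51.1% of the genes past 2-fold were higher in *LApc* over WT. Without the top cell of each gene, also chosen after the data were seen, 20.1% rather than 31.1% were higher in *LApcL* over WT. The causes were not tested. With 133 and 103 cells in *LApc* and *LApcL*, genes near the floor of 3 counts could not be compared.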
